A study of Mus musculus with 36 samples.

Results

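The comparison set 15 arrays of T cells carrying a hairpin against a mouse gene beside 3 arrays of T cells carrying the LacZ control hairpin, all labelled spleen. It was chosen by label alone, takes 18 of the 36 arrays of the series, and covers 18194 genes with 1 probe set per gene. All cells were OT-I CD8 T cells of the mouse, which carry 1 transgenic receptor for an ovalbumin peptide, and each group was transduced with 1 short hairpin RNA (shRNA). Mice with a B16 tumor, grown from a melanoma line, then received the cells, which were purified again later. The 5 tested groups carried hairpins against Ppp2r2d (a regulatory subunit of protein phosphatase PP2A), Egr2 (a transcription factor induced by receptor signals), Ptpn2 (a phosphatase that acts on JAK and STAT proteins), Arhgap5 (a GTPase activating protein) and Alk (a receptor tyrosine kinase). LacZ is a bacterial gene that mouse cells lack. Each of these 6 groups had 3 arrays. The labels give no age, sex or time after transfer, name no more than 1 hairpin per gene, and do not say whether 3 arrays of a group came from separate animals. The p-values below therefore measure the spread between arrays, which may be technical.

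Hairpin RNAs are processed into short guides that lower the messenger RNA they match. Cells with a control hairpin go through the same transduction, transfer and recovery, so a difference shared by all 5 hairpins against LacZ would not depend on which of the 5 genes was targeted. Cytotoxic CD8 T cells kill with perforin and granzymes, serine proteases released from granules, and signal to other cells with interferon gamma and chemokines. Macrophages, B cells and other cells of spleen or tumor carry marker genes of their own that a purified T cell sample should hold little of. In whole RNA, fewer cells of a type and less RNA per cell cannot be told apart.

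The values are the deposited log2 expression values, and every difference below is the mean of the 5 hairpin group means minus the LacZ mean on that scale, with its standard error (SE). Calls rest on limma's moderated test, with p-values adjusted by Benjamini and Hochberg's method across the 18194 genes and a threshold of 0.05, and in the text "rose" and "fell" stand for called genes only. The arrays labelled spleen read high for T cell genes, with a mean over 11 T cell identity genes of 5.67 to 6.20 in hairpin arrays and 5.57 to 6.50 in LacZ arrays. They also read high for myeloid and pigment cell genes. The mean over 21 macrophage markers was 1.87 to 4.55 in hairpin arrays labelled spleen, against -1.62 to -0.31 in hairpin arrays labelled tumor. The mean over 13 melanocyte markers was 2.29 to 3.98 in hairpin arrays labelled spleen, against -1.44 to -0.33 in hairpin arrays labelled tumor. Since these genes run opposite to what the words spleen and tumor name, the words are used here as labels only.

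The LacZ arrays stood apart from the hairpin arrays with the same label in several measures of array quality. The 3' probe set of Gapdh exceeded the 5' one by 0.246 to 0.828 in hairpin arrays and by 0.829 to 1.386 in LacZ arrays. The groups did not overlap, but their nearest arrays read almost the same. The BioB spike, added to every array, read 2.37 to 3.45 in hairpin arrays and 3.53 to 4.08 in LacZ arrays. Probe sets for 18S ribosomal RNA read 4.39 to 5.59 in hairpin arrays and 5.67 to 6.24 in LacZ arrays. For each of these 3 measures an exact permutation test over 816 splits of the arrays gave p = 0.00123, the smallest it allows (adjusted p = 0.00266 over 13 measures, two-sided). That p follows from the lack of overlap and takes the 15 hairpin arrays, which come from 5 groups, as exchangeable with the 3 of LacZ. Array medians and the Dap spike did not pass (exact permutation p = 0.672 and 0.0944). The highest correlation of an array with any other array of the series was 0.982 to 0.991 for hairpin arrays and 0.954 to 0.971 for LacZ arrays. LacZ array 2 had a lowest value of -1.45, while the lowest value of the hairpin arrays was -4.44 to -3.42. Hairpin arrays labelled tumor had a lowest value of -4.32 to -1.38, a Gapdh difference of 0.86 to 2.94 and a BioB spike of 3.38 to 4.51. Such values are therefore not particular to LacZ in the series. Probe sets for 18S read 3.12 to 5.20 in those arrays, below the LacZ arrays labelled spleen. Fits without each LacZ array and with the Gapdh difference as a covariate are given after the gene lists, and the part of the other measures was not tested.

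Of the 5 targets, Ppp2r2d was the one called in its own hairpin group. Ppp2r2d read 3.31, 3.67 and 3.88 with the Ppp2r2d hairpin, against 5.51, 5.16 and 4.31 with LacZ, a difference of -1.37 (limma adjusted p = 0.0286), and the arrays did not overlap. Egr2 read 3.94, 4.08 and 3.89 with the Egr2 hairpin, against 5.43, 5.64 and 4.40 with LacZ (difference -1.19, adjusted p = 0.207). Ptpn2 read 4.52, 3.94 and 4.67 with the Ptpn2 hairpin, against 5.04, 5.70 and 4.76 with LacZ (difference -0.79, adjusted p = 0.0727). In both cases every array with the hairpin read below every LacZ array, though neither difference passed the threshold. Arhgap5 read 0.66, -0.26 and -0.33 with the Arhgap5 hairpin, against -0.71, -0.42 and -0.15 with LacZ (difference 0.45, adjusted p = 0.396), and so was not lower. Alk lay below 0 on all 18 arrays, at -1.79, -2.74 and -2.18 with the Alk hairpin against -0.55, -0.22 and -1.97 with LacZ (difference -1.32, adjusted p = 0.0828). Over all 5 hairpins together, Alk was the target that fell, by 1.63 ± 0.37 (SE, adjusted p = 0.00319), and without LacZ array 2 that call was lost (adjusted p = 0.0563).

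Between the 5 hairpin groups and LacZ, 3915 of 18194 genes were called, which is 21.5%. Of all genes, 6.91% rose (1258) and 14.6% fell (2657) in the hairpin groups. In 479 genes (2.63%) all 15 hairpin arrays read above all 3 LacZ arrays, and in 999 (5.49%) all read below. Among the called genes 436 that rose and 945 that fell were separated in this way. The median difference over all genes was -0.18, and an F test among the 5 hairpin groups called 980 genes (5.39%), 298 of which were also among the 3915. Most called genes thus did not pass a test of spread among the 5 hairpins, which does not show that the hairpins acted alike.

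The direction of the difference followed the level of the gene. Among 4077 genes with a mean over the 36 arrays under -2, the median difference was -0.86, 1345 fell and 0 rose. Among 2600 genes with a mean between 0 and 2, the median was 0.34, 606 rose and 86 fell. Among 565 genes with a mean above 6 the median was -0.37, 66 fell and 0 rose. Genes with a mean under 0 made up 92% of all falls. When the arrays were first given 1 common distribution by quantile normalization, the medians of the 6 level ranges lay between -0.05 and 0.06. After it 7% of genes rose (1274) and 5.68% fell (1033), and 1432 of these 2307 calls were shared with the deposited values, all in the same direction. Without LacZ array 2, 5.48% of genes rose (997) and 3.61% fell (656). With all arrays 1258 rose and 2657 fell, so most falls were not called without that array. The plot of difference by level shows both settings.

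**Figure D1:**
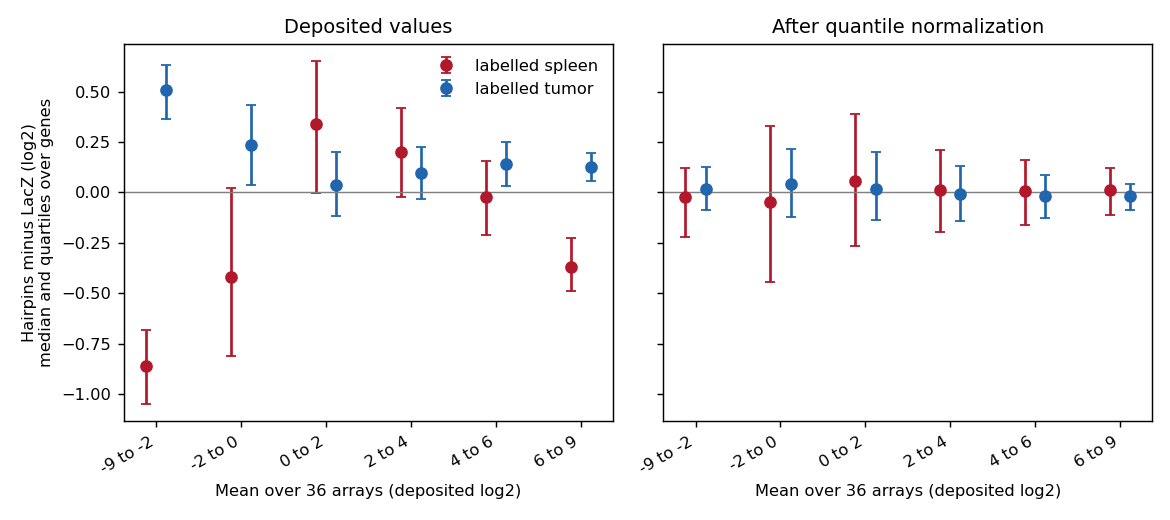
Difference of hairpins minus LacZ on the log2 scale (points: median over genes; bars: quartiles) in 6 ranges of the gene's mean over 36 arrays, for arrays labelled spleen (red) and labelled tumor (blue), with deposited values on the left and quantile normalized values on the right. With deposited values the spleen medians run between -0.86 and 0.34, and after quantile normalization they lie between -0.05 and 0.06.

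Granzyme M led the rises among genes whose hairpin and LacZ arrays did not overlap, and genes of many kinds followed it. Granzyme M (Gzmm), a granule protease of cytotoxic lymphocytes, read 1.75 at lowest, 2.39 at the median and 3.38 at highest in hairpin arrays, against 0.30, -0.37 and 0.50 in LacZ arrays. The groups lay more than 1 log2 unit apart, with the Ppp2r2d and Arhgap5 hairpins highest, at means of 3.23 and 3.06. The difference was 2.38 ± 0.23 (SE, limma adjusted p = 2.04e-07).

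Ly96, Milr1 and Gpr137b were among the 12 largest rises without overlap. Ly96, the coreceptor that holds lipopolysaccharide for TLR4, read 1.08 to 2.16 in hairpin arrays with a median of 1.53, against -1.37, -0.18 and 0.56 in LacZ arrays (difference 1.93 ± 0.27). Milr1, an inhibitory receptor best known from mast cells, read 1.48 to 2.96 with a median of 1.76 in hairpin arrays, against 0.21, 0.05 and 0.18 in LacZ arrays (difference 1.83 ± 0.22). Gpr137b, a membrane protein of lysosomes, read 1.09 to 3.04 with a median of 2.04 in hairpin arrays, against -0.65, 0.46 and 0.73 in LacZ arrays (difference 1.91 ± 0.28). The rule for the 12 admits no hairpin array within the LacZ range, so this separation is not a result.

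Ctsl, the lysosomal protease cathepsin L, and Mmp12, the elastase of macrophages, differed among the hairpins as well as from LacZ. Ctsl read 5.13, 5.22 and 6.06 with the Alk hairpin and 2.36 to 3.50 with the other 4 hairpins, against 1.48, 1.31 and 1.93 with LacZ (difference 1.88 ± 0.27, adjusted p = 7.16e-05). Mmp12 read 5.04, 5.61 and 6.14 with the Alk hairpin and 1.91 to 3.20 with the other 4, against 1.52, 1.33 and 1.38 with LacZ (difference 1.79 ± 0.39, adjusted p = 0.00217). By the same rule both were separated from LacZ with every hairpin. The Alk arrays stood well above the rest (F test among hairpins, adjusted p = 4.88e-06 for Ctsl and 0.000117 for Mmp12).

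Dusp14, Cxcl9 and Sult2b1 were also among the 12. Dusp14, a phosphatase that restrains T cell receptor signals, read 2.22 to 4.41 with a median of 3.13 in hairpin arrays, against 0.95, 1.74 and 1.40 in LacZ arrays (difference 1.84 ± 0.29, adjusted p = 0.000149), and was highest with the Arhgap5 hairpin at a mean of 4.29. Cxcl9, a chemokine induced by interferon gamma, read 1.55 to 3.33 with a median of 2.41 in hairpin arrays, against 0.61, 0.15 and 0.66 in LacZ arrays (difference 1.90 ± 0.33, adjusted p = 0.000365). Sult2b1, which sulfates cholesterol, read 1.58 to 3.10 in hairpin arrays, against 0.40, 0.15 and 0.92 in LacZ arrays (difference 1.78 ± 0.29). The other 3 of the 12 were Sgip1, Zkscan5 and Depdc7, with differences of 2.22, 1.88 and 1.80. Another probe set of Sgip1, an endocytosis gene of neurons, went the other way (difference -2.14, called), so its direction is uncertain. All 12 stayed called after quantile normalization, after cyclic loess and without LacZ array 2. The plot of the 12 genes by array shows each value.

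**Figure D2:**
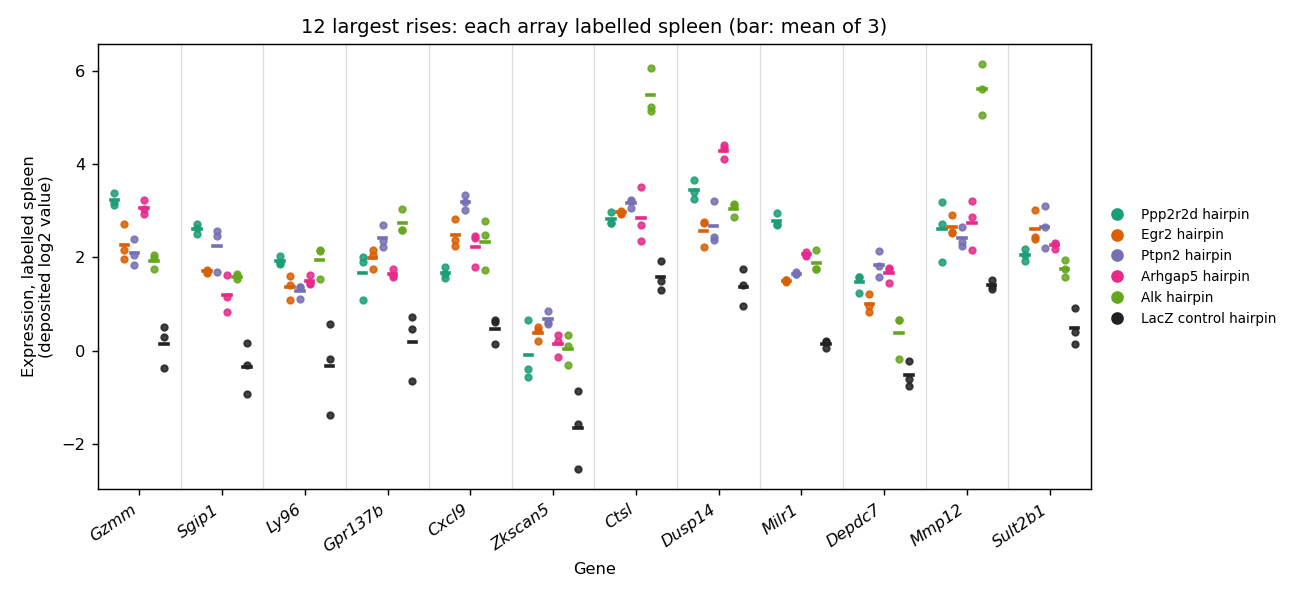
Deposited log2 values of the 12 genes with the largest rises in each array labelled spleen (points: arrays; bars: means of 3), with the 5 hairpin groups on the left of each gene and LacZ, in black, on the right. In all 12 genes every hairpin array lies above every LacZ array, by the rule that chose them. Ctsl and Mmp12 reach 6.06 and 6.14 with the Alk hairpin.

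Among genes with a mean over the 36 arrays above 2, the 10 largest rises included Anxa1, Glrx and Calhm6 beside Gzmm and Ctsl. This tier was added after the values were seen, since most falls ranked by size alone lay near the lowest values. Anxa1, annexin A1, a phospholipid binding protein that limits inflammation, read 4.30 to 5.77 with a median of 5.16 in hairpin arrays, against 3.29, 4.06 and 3.14 in LacZ arrays (difference 1.56 ± 0.30, adjusted p = 0.000874). Glrx, a glutaredoxin that reduces protein disulfides with glutathione, read 3.75 to 5.41 in hairpin arrays, against 2.74, 3.31 and 2.60 in LacZ arrays (difference 1.49 ± 0.23, adjusted p = 0.000128). Calhm6, of the calcium homeostasis modulator family, read 3.00 to 5.13 in hairpin arrays, against 2.11, 2.90 and 2.48 in LacZ arrays (difference 1.44 ± 0.20), and was highest with the Ppp2r2d hairpin at a mean of 5.03. Washc1, a subunit of the WASH complex that builds actin on endosomes, had the tightest groups, at 2.26 to 2.89 in hairpin arrays against 0.90, 0.96 and 0.87 in LacZ arrays (difference 1.71 ± 0.23). The remaining 4, Tspan32, Ccdc28b, Csrp1 and Cwc25, rose by 1.32 to 1.61. All 10 stayed called after both normalizations and without LacZ array 2.

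The 12 largest falls without overlap were genes whose mean over the hairpin groups lay below -1. Chrdl1, a secreted antagonist of bone morphogenetic proteins, read -3.52 to -1.93 with a median of -2.88 in hairpin arrays, against 1.40, -0.34 and 0.56 in LacZ arrays (difference -3.42 ± 0.49, adjusted p = 7.16e-05). Grik1 and Ntrk3, receptors of neurons for glutamate and neurotrophin-3, differed by -3.08 and -2.87, and Hoxd10, a homeobox factor of limb patterning, by -2.90. The others were Kalrn, Aff2, Arhgef15, Fndc7, Sphkap, Plppr4, Ugt2b37 and Marveld3. Over the 12, the mean of the hairpin groups was between -3.27 and -1.24, while the LacZ mean was between -0.53 and 1.61. After quantile normalization 11 of the 12 stayed called, and Marveld3 did not (difference -1.94, adjusted p = 0.073). The files hold no detection calls, so whether these genes were above background was not tested.

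At higher levels the largest falls were of 2 kinds. Ntmt1, which methylates protein N termini, read 1.58 to 2.83 in hairpin arrays, against 4.01, 4.26 and 3.29 in LacZ arrays (difference -1.65 ± 0.32, adjusted p = 0.000899), but another of its probe sets rose by 0.65. Acer2, a ceramidase of the Golgi, read 1.06 to 2.46 in hairpin arrays, against 3.47, 3.99 and 2.71 in LacZ arrays (difference -1.61 ± 0.33, adjusted p = 0.00127). Bzw2, a regulator of translation, read 3.79 to 4.82 in hairpin arrays, against 5.68, 5.82 and 5.31 in LacZ arrays (difference -1.38 ± 0.27, adjusted p = 0.00116). These 3 stayed called after quantile normalization and without LacZ array 2. With the mean of all probe sets Acer2 and Bzw2 lost the call (differences -0.58 and -0.36, adjusted p 0.0557 and 0.148), and each had another probe set with a difference above 0 (0.45 and 0.54, neither called). The other 7, all among the brightest genes on the arrays, differed by -0.72 to -0.63: the actin binding genes Cfl1, Tmsb4x and Tmsb10, and Nap1l1, Lgals1, Rplp2 and Vdac1. Of these 7, Nap1l1, a histone chaperone, was the one still called after quantile normalization (difference -0.26), and Rplp2 and Tmsb10 then had a difference just above 0 (0.01 and 0.02). Without LacZ array 2 none of the 7 was called (adjusted p 0.117 to 0.206).

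Of 23 cytotoxic effector genes, 7 fell and 2 rose, beside 14.6% and 6.91% of all genes, with a median difference of -0.37 against -0.18 over all genes. All 7 that fell were granzymes. Gzmf read 2.52 to 6.51 with a median of 5.40 in hairpin arrays, against 6.40, 7.0 and 6.28 in LacZ arrays (difference -1.53 ± 0.31, adjusted p = 0.00121). Gzma, a granzyme that cleaves after basic residues, read 3.79 to 6.40 with a median of 5.41 in hairpin arrays, against 6.55, 7.0 and 6.24 in LacZ arrays (difference -1.38 ± 0.31, adjusted p = 0.00262). The groups overlapped in both genes, since some hairpins read close to LacZ and others far below. Gzmg, Gzme, Gzmd, Gzmc and Gzmb differed by -1.42, -1.39, -1.23, -0.92 and -0.77.

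Which hairpin read lowest was not the same for every granzyme. Gzmf averaged 2.79 with the Ppp2r2d hairpin, 4.68 with Ptpn2, 5.33 with Alk, 6.02 with Egr2 and 6.33 with Arhgap5, against 6.56 with LacZ. For Gzma the means were 3.85 with the Arhgap5 hairpin, 4.95 with Alk, 5.35 with Ppp2r2d, 5.65 with Egr2 and 6.27 with Ptpn2, against 6.60 with LacZ. Gzmg averaged 0.74 with the Ptpn2 hairpin and 1.30 with Ppp2r2d but 4.45 with Egr2, against 3.76 with LacZ. The F test among hairpins called 6 of the 7 (Gzmb not), with adjusted p of 1.35e-06 for Gzmf, 7.66e-06 for Gzmg and 0.00121 for Gzma. Gzmk, a granzyme typical of memory-like cells, was not called against LacZ (difference 0.41, adjusted p = 0.197) but averaged 5.08 with the Ptpn2 hairpin and 2.34 to 3.54 with the other 4, against 2.99 with LacZ.

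Klrg1, an inhibitory receptor of effector cells, was the other rise of the list beside Gzmm, at 0.21 to 2.19 in hairpin arrays against 0.16, 0.19 and 0.73 in LacZ arrays (difference 0.84 ± 0.23, adjusted p = 0.0113). Perforin (Prf1) differed by -0.40 and was not called (adjusted p = 0.16). After quantile normalization 5 of 23 fell and 1 rose: Gzmf, Gzmg, Gzme, Gzmd and Gzma on one side, Gzmm on the other. Without LacZ array 2, 2 fell (Gzmf and Gzma) and 1 rose (Gzmm), while Gzmg, Gzme, Gzmd, Gzmc, Gzmb and Klrg1 lost the call (adjusted p 0.0654 to 0.255). Without LacZ array 3, 10 fell and 2 rose. The plot of granzymes by array shows Gzmm as the one with LacZ lowest in every array.

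**Figure D3:**
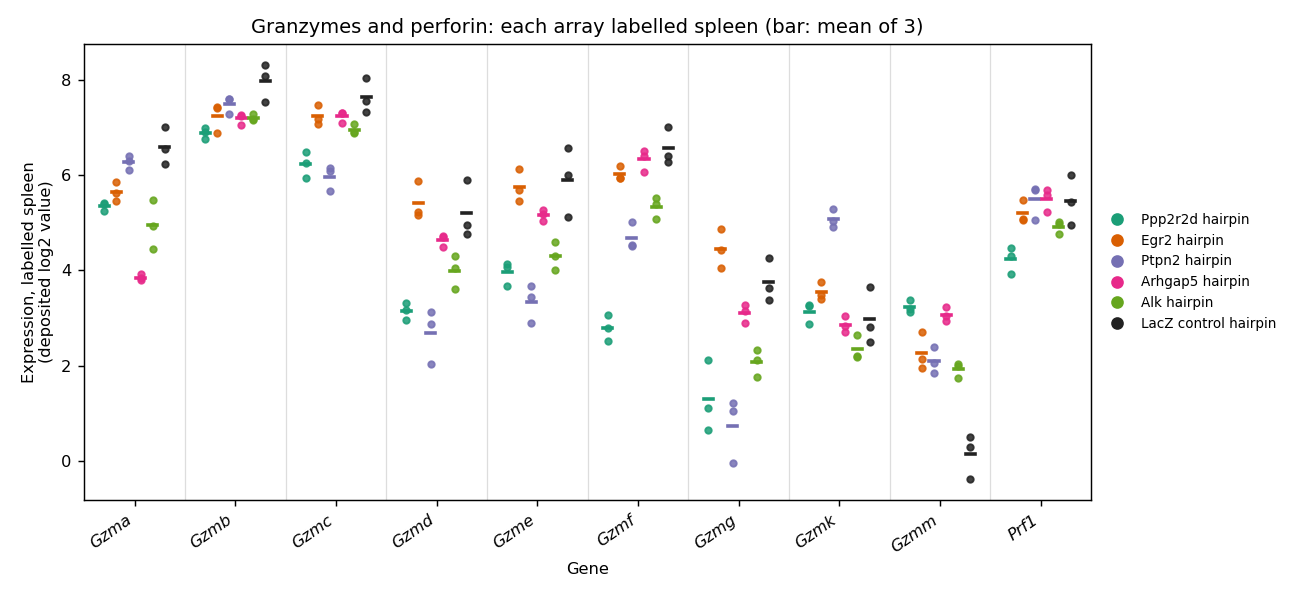
Deposited log2 values of 9 granzymes and perforin (Prf1) in each array labelled spleen (points: arrays; bars: means of 3), hairpin groups on the left of each gene and LacZ in black on the right. Gzmf reads 2.52 to 3.07 with the Ppp2r2d hairpin and 6.28 to 7.0 with LacZ, while Gzmm reads 1.75 to 3.38 with the hairpins and -0.37 to 0.50 with LacZ.

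Secreted signals of T cells held 4 falls and 0 rises among 18 genes, beside 14.6% and 6.91% of all genes (median -0.55). Il10, an inhibitory cytokine, read -1.13 to 2.31 with a median of 0.00 in hairpin arrays, against 2.54, 2.86 and 2.02 in LacZ arrays (difference -2.27 ± 0.37, adjusted p = 0.000205). It was lowest with the Ppp2r2d hairpin and nearest to LacZ with Ptpn2, at means of -0.93 and 1.58. Il21, a helper cytokine, differed by -1.24. Xcl1, a chemokine for cross-presenting dendritic cells, and Ifng, interferon gamma, differed by -0.57 and -0.56. After quantile normalization Il10 stayed called (difference -2.42, adjusted p = 5.31e-09), and Il21, Xcl1 and Ifng did not (adjusted p 0.136, 0.415 and 0.386). The same 3 lost the call without LacZ array 2 (adjusted p 0.0654, 0.307 and 0.325), and Il10 did not. Falls in this list numbered 1 without LacZ array 1 and 7 without LacZ array 3.

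T cell identity genes gave no call in either direction (0 of 11 with limma at the adjusted threshold), but other settings gave some in either direction. After quantile normalization 1 rose and after cyclic loess 2, whereas 4 fell with the Gapdh 3' to 5' difference as a covariate, 3 without LacZ array 3, 2 with arrays labelled spleen only and 1 with array weights. Cd8a, the coreceptor chain, came closest, at 6.13 to 6.94 in hairpin arrays against 7.08, 7.46 and 6.59 in LacZ arrays (difference -0.48 ± 0.18, adjusted p = 0.0576). Of 19 inhibitory receptor and exhaustion genes 2 rose, beside 6.91% of all genes. They were Entpd1, the CD39 ectonucleotidase (difference 0.90 ± 0.21, adjusted p = 0.00459), and Cd200r1, an inhibitory receptor (difference 0.69 ± 0.23, adjusted p = 0.0356). Neither stayed called after quantile normalization or without LacZ array 2. Entpd1 also lost the call with the mean of all probe sets, and its other probe sets differed by -0.09 and 0.004. Pdcd1, which encodes PD-1, and Tox differed by -0.24 and 0.09 (adjusted p 0.465 and 0.804).

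Of the 34 gene lists, macrophage and monocyte markers held the highest share of rises. Of 21 genes 11 rose and 0 fell, against 6.91% of all genes that rose, and the median difference was 0.90. The share of rises depends on level, with 606 of 2600 genes at a mean between 0 and 2. The list was not compared with genes of like level. Aif1, an actin binding protein of macrophages, read 1.28 to 3.61 with a median of 2.54 in hairpin arrays, against 1.26, 0.08 and 0.96 in LacZ arrays (difference 1.70 ± 0.32, adjusted p = 0.00078). Cd68, a lysosomal glycoprotein, read 3.27 to 5.64 in hairpin arrays, against 2.82, 3.31 and 2.41 in LacZ arrays (difference 1.26 ± 0.22, adjusted p = 0.000387). Fcgr3, a low affinity receptor for antibody, read 2.41 to 5.03 in hairpin arrays, against 2.26, 2.35 and 2.00 in LacZ arrays (difference 1.26 ± 0.20, adjusted p = 0.000209). Aif1 and Fcgr3 were separated from LacZ in every array.

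The Alk hairpin arrays carried the highest values of these markers. Arg1, the arginase of suppressive macrophages, read 4.68, 4.70 and 5.80 with the Alk hairpin and 1.41 to 2.90 with the other 4, against 1.51, 0.78 and 1.00 with LacZ (difference over 5 hairpins 1.60 ± 0.27, adjusted p = 0.000262). Apoe, a lipid carrier secreted by macrophages, averaged 3.93 with the Alk hairpin, 1.75 with Arhgap5, 1.50 with Egr2, 1.32 with Ptpn2 and 0.43 with Ppp2r2d, against 0.17 with LacZ (difference 1.62 ± 0.30, adjusted p = 0.000612). The F test among hairpins gave adjusted p of 3.18e-07 for Arg1 and 3.14e-06 for Apoe. The other rises were C1qa, Lyz2, Lgmn, Ms4a7, Fcgr1 and Sirpa, by 0.86 to 1.37. Without the Alk group 6 of 21 rose (median 0.62), after quantile normalization 7 rose against 7% of all genes, and without LacZ array 1, 2 or 3 it was 9, 8 or 7. With transduction as a random block Arg1, Apoe, Lgmn, Ms4a7, Fcgr1 and Sirpa lost the call (adjusted p 0.0661 to 0.106). Averaged over the list, each Ppp2r2d array read 1.87 to 2.53, overlapping the LacZ arrays at 1.78 to 2.20, and each Alk array 3.74 to 4.55.

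Melanocyte markers, which B16 cells express, gave 2 rises and 0 falls among 13 genes, beside 6.91% and 14.6% of all genes (median 0.61). Ptgds, a prostaglandin synthase, read 3.85 to 5.95 in hairpin arrays, against 3.91, 4.49 and 3.85 in LacZ arrays (difference 0.90 ± 0.31, adjusted p = 0.0385). Trpm1, a channel of pigment cells, differed by 0.82 ± 0.20 (adjusted p = 0.00463), though another of its probe sets fell by 1.15. The pigment enzymes Tyr, Tyrp1 and Dct were not called (differences 1.03, 0.29 and 0.31), nor were Mlana and Pmel (0.65 each). The mean over the list was 2.29 to 3.98 in hairpin arrays, highest with the Alk hairpin, and 2.19 to 2.95 in LacZ arrays. Of the 11 MHC class II and dendritic cell markers H2-DMa, which loads peptides onto class II molecules, rose (difference 0.80), and of 16 stroma and endothelium markers 3 rose (Col3a1, Sparc and Thbs1) and 2 fell (Dcn and Kdr). Ptgds and these 5 lost the call without LacZ array 2.

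B cell markers went the other way, with 6 falls and 0 rises among 12 genes, against 14.6% of all genes that fell (median -1.0). Of the 12, 8 had a mean under 0 over the 36 arrays. Falls were more frequent at that level, in 2444 of 8639 genes, and the list was not compared with genes of like level. Jchain, which joins secreted antibodies, read -3.57 to 1.14 with a median of -1.31 in hairpin arrays, against 1.56, 1.07 and 1.29 in LacZ arrays (difference -2.79 ± 0.63, adjusted p = 0.00295). Cd22, an inhibitory receptor of B cells, read -0.77 to 1.50 with a median of 0.28 in hairpin arrays, against 1.77, 1.92 and 1.19 in LacZ arrays (difference -1.29 ± 0.24, adjusted p = 0.000689). Ebf1, a B lineage transcription factor, read -3.02 to 0.06 in hairpin arrays, against 1.54, 0.46 and 0.47 in LacZ arrays (difference -2.48 ± 0.57, adjusted p = 0.00355). After quantile normalization 3 of 12 fell (Jchain, Ebf1 and Cd22), against 5.68% of all genes. Pax5, Cr2 and Cd79a, also called, lay below 0 in every array of both groups, and without LacZ array 2 Pax5 and Cr2 lost the call, leaving 4 falls, against 9 without LacZ array 3. Ighm, the heavy chain of IgM, differed by 0.06 (adjusted p = 0.878).

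All 12 neutrophil markers had a mean under 0 over the 36 arrays, and 4 fell (Ngp, Camp, Cxcr2 and Mmp9, by 0.75 to 1.30). Of all genes 14.6% fell, and among genes with a mean under 0 it was 2444 of 8639. The count is therefore not read as a result about the list. None of the 4 markers was called after quantile normalization, where 2 other members rose, and without LacZ array 2 the list held 0 calls. Erythroid markers (7 genes) and CD4, regulatory and NK cell markers (10 genes) held 0 calls.

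Of 22 genes induced by type I interferon 4 rose and 0 fell, beside 6.91% and 14.6% of all genes, and the median difference was 0.46. Irf7, the factor that amplifies interferon production, read 2.56 to 3.86 with a median of 3.39 in hairpin arrays, against 2.83, 2.41 and 2.09 in LacZ arrays (difference 0.87 ± 0.22, adjusted p = 0.00672). Ifit2, a restriction factor for viral RNA, read 2.66 to 3.99 with a median of 3.29 in hairpin arrays, against 2.31, 2.80 and 2.46 in LacZ arrays (difference 0.76 ± 0.20, adjusted p = 0.0101). In each gene the groups overlapped by 1 LacZ array. Oasl2, of the oligoadenylate synthetase-like family, and Cmpk2, a mitochondrial nucleotide kinase, differed by 1.06 and 1.33, and Cmpk2 lost its call after quantile normalization (adjusted p = 0.0606). Without LacZ array 2 both lost it (adjusted p 0.0598 and 0.0865). The list's mean was 2.45 to 3.38 in hairpin arrays, highest with the Ptpn2 hairpin, and 2.08 to 2.52 in LacZ arrays.

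Of 18 genes induced by interferon gamma, 2 rose and 0 fell, a share of rises near that of all genes, with a median of 0.04. Beside Cxcl9 the other was Iigp1, a GTPase that attacks the vacuoles of parasites. Iigp1 read 4.14, 3.20 and 4.19 with the Ptpn2 hairpin and 1.86 to 2.72 with the other 4, against 1.55, 0.92 and 1.11 with LacZ (difference 1.48 ± 0.24, adjusted p = 0.000225). All 15 hairpin arrays lay above the LacZ arrays, and the hairpins differed among themselves (F test, adjusted p = 0.0019). Both stayed called after quantile normalization and without LacZ array 2. The plot of list means by array sets these lists side by side.

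**Figure D4:**
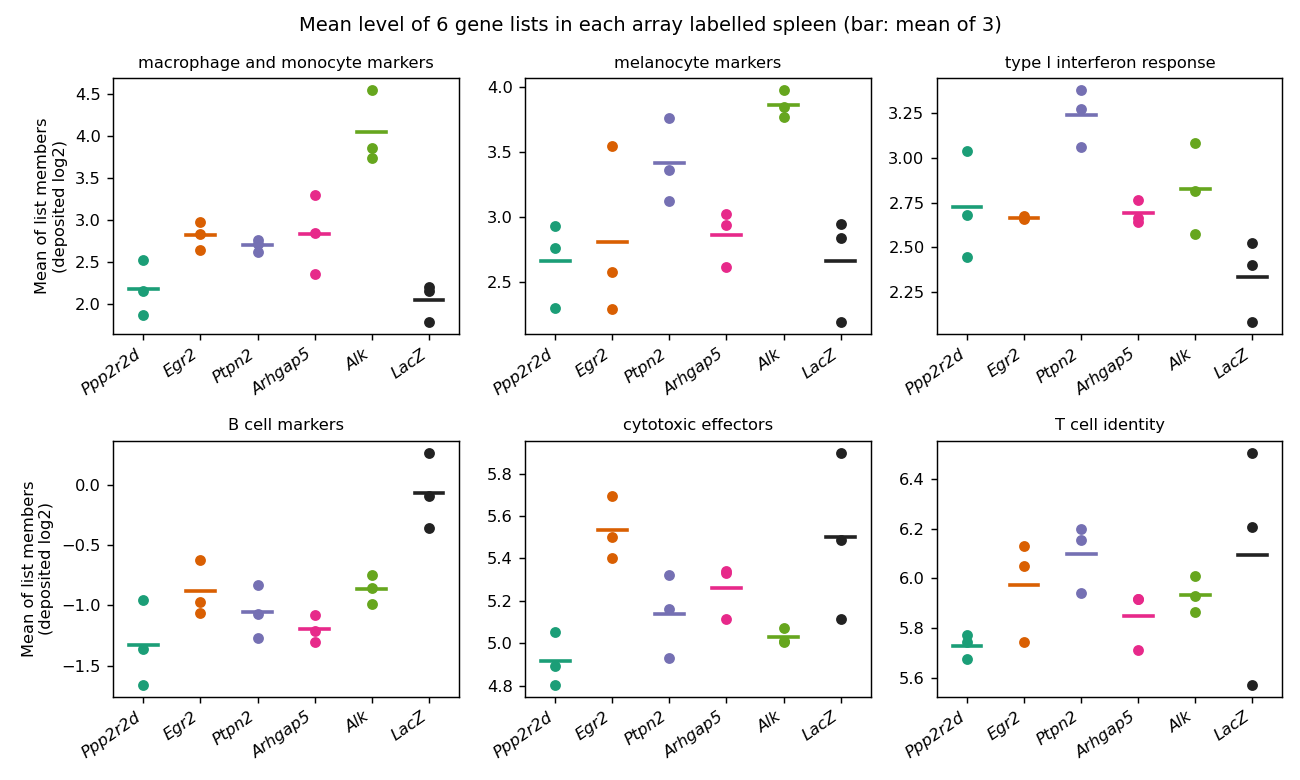
Mean deposited log2 value of the measured members of 6 gene lists in each array labelled spleen (points: arrays; bars: means of 3), the 5 hairpin groups on the left and LacZ in black on the right, each panel with its own axis. Macrophage markers reach 4.55 with the Alk hairpin against 1.78 to 2.20 with LacZ, and B cell markers lie at -1.66 to -0.62 with the hairpins against -0.36 to 0.26 with LacZ.

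The ribosomal, heat shock and glycolysis lists held falls and 0 rises, beside 14.6% of all genes that fell. Of 16 ribosomal protein genes 3 fell (median -0.45), of 12 heat shock genes 3 fell (median -0.55), and of 22 glycolysis and hypoxia genes 2 fell, Gapdh and Pgk1 (median -0.29). Rps24 read 6.97 to 7.48 in hairpin arrays, against 8.01, 8.23 and 7.43 in LacZ arrays (difference -0.62 ± 0.20, adjusted p = 0.0296). Hspb1, a small heat shock protein, differed by -1.35 ± 0.46 and was the 1 gene of these 8 that stayed called after quantile normalization (difference -1.57). Then the ribosomal list had a median of 0.04 with 2 rises and 0 falls, and Rpl35 and Rps3 had differences just above 0 (0.03 and 0.02). Respiratory chain (24 genes), proteasome (22) and apoptosis (13) lists held 0 calls with the deposited values. Cell cycle lists held 1 call each: Plk1, a mitotic kinase, rose by 0.50, and Mcm4, of the replicative helicase, fell by 0.74. Plk1 lost the call after quantile normalization and without LacZ array 1, 2 or 3, and Mcm4 lost it without LacZ array 1 or 2.

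Single members of other pathways were called. Cish, which STAT5 induces and which dampens cytokine and receptor signals, read 1.32 to 3.50 in hairpin arrays, against 3.61, 5.18 and 2.62 in LacZ arrays (difference -1.17 ± 0.30, adjusted p = 0.00672), and without LacZ array 2 it was not called (difference -0.49, adjusted p = 0.278). Fdps and Msmo1, enzymes of cholesterol synthesis, rose by 0.93 and 0.76 (2 of 14 genes), and Msmo1 lost the call after quantile normalization. Ccr2, the receptor for inflammatory monocyte chemokines, rose by 0.78 and Ccr8 by 1.16, while Itgae, the integrin chain CD103 of tissue-resident T cells, fell by 1.04 (17 homing genes). Il6ra and Satb1 fell and Ltb rose among 17 naive and memory genes. Of 16 PP2A subunits Ppp2r3a rose (difference 1.06). Of all genes 6.91% rose and 14.6% fell, so such counts of 1 or 2 per direction are not read as results about the lists. Without LacZ array 1 Fdps, Msmo1, Ccr2, Ccr8, Itgae, Il6ra, Satb1 and Ppp2r3a lost the call, without array 2 Itgae, Satb1 and Ltb, and without array 3 Msmo1, Ccr2 and Ltb.

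Single LacZ arrays carried many calls near the threshold. Of 127 called genes that are named here or belong to a list, 53 lost the call without LacZ array 1, 60 without LacZ array 2 and 17 without LacZ array 3, and none changed sign. Genes of the glycolysis, ribosomal and heat shock lists were among them, with Gapdh, Pgk1, Rps24, Rpl35, Rps3, Hspa8, Hspb1 and Hsph1 lost without array 1 and again without array 2. The 12 largest rises, the 10 largest at higher levels, Il10, Gzmf, Gzma, Arg1, Apoe, Aif1, Cd68, Fcgr3 and Iigp1 kept the call in all 3 cases. With transduction as a random block 22 of the 127 lost it, among them Gzmf, Arg1 and Apoe (adjusted p 0.0861, 0.0695 and 0.0661). Gzmg, Gzmd, Xist, Eif2s3y, Kdm5d and Uty were also among the 22. The same 22 lost the call with the 15 hairpin arrays as 1 group, so the block itself changed little. Both fits in effect count arrays, and the contrast with the 5 hairpins as the units was not tested. With the Gapdh 3' to 5' difference as a covariate 36 of the 127 lost the call, among them Ifng, Il21, Cd200r1, Gzmd and Ptgds. The 12 largest rises and 12 largest falls did not.

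Under the label tumor the same contrast called 14 genes (0.0769%), of which 8 rose and 6 fell, with an all-gene median of 0.20. Genes with an unadjusted limma p under 0.05 numbered 1171. With array weights the tumor contrast called 4638 genes, so its low count depends on the fit. The spleen and tumor contrasts share no arrays, and their difference was tested as an interaction. It called 2683 genes (14.7%). In 307 the difference of hairpins minus LacZ in arrays labelled spleen lay above that in arrays labelled tumor. In 2376 it lay below, by sign and not by size, so genes that fell in arrays labelled spleen alone are counted there. Gzmm differed by 2.38 in arrays labelled spleen and by 0.23 in arrays labelled tumor (interaction 2.14, adjusted p = 0.00220), Aif1 by 1.70 and -0.35 (2.04, adjusted p = 0.0105), and Gzmf by -1.53 and 0.78 (-2.31, adjusted p = 0.00734). This count rested on single arrays: without LacZ array 1 labelled tumor it was 25, without LacZ array 2 labelled spleen 283, and after quantile normalization 493. Washc1 and Glrx, by contrast, gave no called difference between the labels (adjusted p 0.123 and 0.304), with values of 1.02 and 1.01 in arrays labelled tumor.

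Under both labels 6 genes were called in the same direction, all rises: Ctse, Ptprv, Klra5, Eif2s3y, Kdm5d and Uty. They fall outside the rule for naming genes, except by this count, and were singled out after their values were seen. Klra5, a receptor of the Ly49 family, read 2.69 to 4.02 in hairpin arrays, against 1.39, 2.25 and 1.60 in LacZ arrays (difference 1.69 ± 0.26, adjusted p = 0.000127; 1.63 in arrays labelled tumor). Each of the 5 hairpins lay above LacZ in every array for this gene.

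Ctse, the endosomal protease cathepsin E, gave the largest difference of all genes, 5.31 ± 0.33 (adjusted p = 2.78e-12), yet not with every hairpin. It read 5.01 to 5.90 with the Ppp2r2d, Egr2, Ptpn2 and Arhgap5 hairpins and -0.49, -0.86 and -0.18 with the Alk hairpin, against -0.65, -0.82 and -1.35 with LacZ. Ptprv, a receptor type tyrosine phosphatase, was likewise high with those 4 hairpins alone, at 1.57 to 2.89 against 0.14, -0.04 and -0.20 with Alk and 0.54, 0.88 and 0.09 with LacZ. Both lie on chromosome 1 in the reference, where 7 of the 82 tested genes in the stretch that starts at Ctse and ends at Ptprc rose and 12 fell, shares near the 6.91% and 14.6% of all genes.

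The 3 Y-linked genes Eif2s3y (a translation factor subunit), Kdm5d and Uty (histone demethylase family members) rose through 2 hairpin groups alone. Eif2s3y read 5.23 to 5.69 with the Ptpn2 and Arhgap5 hairpins and -3.54 to -2.83 with the Ppp2r2d, Egr2 and Alk hairpins, against -3.06, -1.13 and -3.32 with LacZ. Xist, the noncoding RNA that silences 1 X chromosome in female cells, ran opposite, at 3.17 to 4.35 with the Ptpn2 and Arhgap5 hairpins and 5.98 to 6.48 with the other 3, against 6.91, 7.46 and 6.37 with LacZ (difference over 5 hairpins -1.64 ± 0.43, adjusted p = 0.00798). The labels give no sex for the cell donors. Hairpin group and the source of the cells cannot be told apart, here or in any other result of this contrast.

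**Figure D5:**
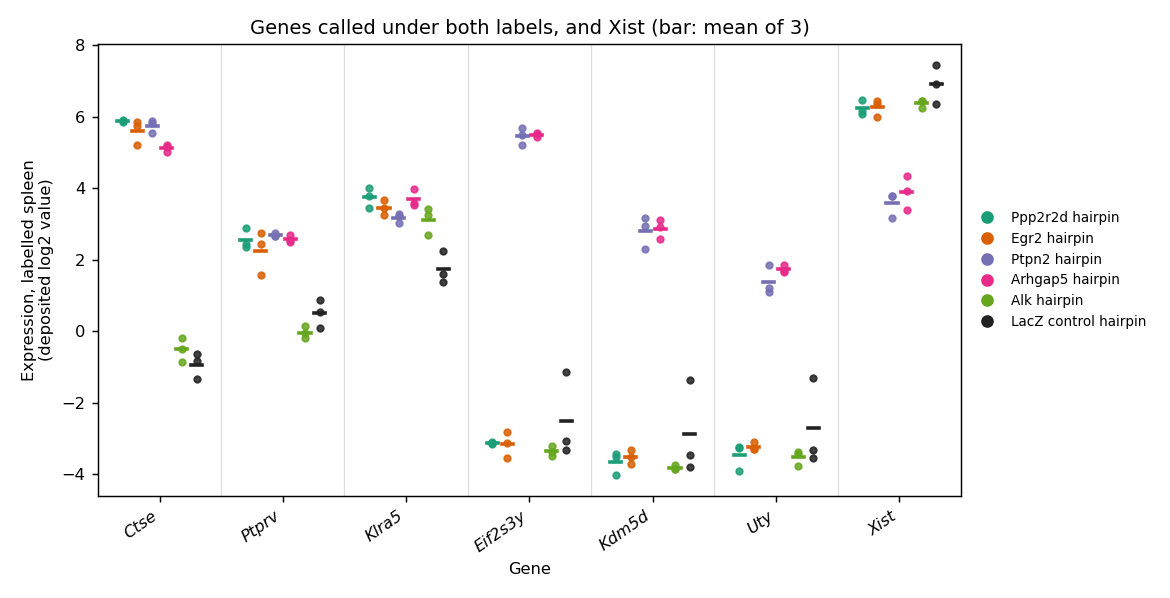
Deposited log2 values in each array labelled spleen (points: arrays; bars: means of 3) of the 6 genes called in the same direction under both labels and of Xist, hairpin groups on the left of each gene and LacZ in black on the right. Ctse lies at 5.01 to 5.90 in 4 hairpin groups and at -1.35 to -0.18 with Alk and LacZ, and Eif2s3y at 5.23 to 5.69 in the Ptpn2 and Arhgap5 groups alone.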

How the data were processed

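The authors deposited log2 values of 36 single-channel Affymetrix 3' arrays, made with RMA per the submitters' processing notes, of a version and with settings not given in the sources used here. Per the labels' protocols, Trizol gave the total RNA, which a 1-cycle reaction labelled with biotin. The range of the values shows the log2 scale. How the arrays were centred is not stated, and the arrays do not share 1 distribution. Their medians labelled spleen were -0.48 to -0.29 in hairpin arrays and -0.42 to -0.31 in LacZ arrays. The number of arrays limits the precision.

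Of 45101 probe sets 34958 carried 1 gene symbol and 932 several. A gene was read from its brightest probe set, by the mean of all 36 arrays (9012 genes had several). The model was limma's linear fit with moderated variance (limma 3.58.1 in R 4.3.3). The fit had 1 coefficient per group over 36 arrays, 24 residual and 6.75 prior degrees of freedom, and Benjamini-Hochberg adjustment over 18194 genes. The contrast was the mean of the 5 hairpin group means minus LacZ. All tests are two-sided.

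Named genes were the 12 largest rises and 12 largest falls among called genes whose groups did not overlap, up to 4 called members per list and direction, and the 5 targets, without predicted genes and clones. The tier of 10 rises and 10 falls with a mean above 2, and the genes called under both labels with Xist, were added later. Of 119 named genes 77 had other probe sets, 22 had one of opposite sign and 3 a called one. The 34 lists asked for 618 genes, of which 560 were measured. The comparison, the lists and the rules were chosen with earlier results of these data known.

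Arrays with the same replicate number were not paired: in 45 such pairs the residual correlations were -0.30 to 0.23 and 13 exceeded 0.1. No arrays were identical. Alternatives were quantile normalization, cyclic loess, averaging a gene's probe sets, a low-value filter (over the 40th percentile on 3 or more arrays), array weights, a replicate block, the Gapdh 3' to 5' difference as a covariate, fewer arrays in the fit, other groupings of the 15 hairpin arrays, and leaving out each array or hairpin group. In simulated arrays with 50 genes each shifted by 0.5, 1, 2 and 4, this contrast recovered 0, 15, 44 and 50, with 4 false calls among the other genes. The simulated noise was independent between genes and held no distortion of whole arrays, such as that of LacZ array 2. The 4 false calls therefore do not measure the false calls in these data.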

Additional observations from a re-analysis of the deposited data

Results flagged for a closer look

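For 53 of the 119 named genes, the difference of hairpins minus LacZ itself differed between arrays labelled spleen and arrays labelled tumor, by limma's interaction test (adjusted p 0.00220 to 0.0498). Most named genes were chosen for their difference in arrays labelled spleen, which is part of this test, so their number is not set against that of all genes. The values below are the difference in arrays labelled spleen minus that in arrays labelled tumor, on the log2 scale. No explanation for them was tested, and the count of such genes rests on single arrays, as given above.

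Among large rises the values were 2.14 for Gzmm, 1.35 for Sgip1, 1.78 for Ly96, 1.94 for Gpr137b, 1.37 for Cxcl9, 1.44 for Zkscan5, 1.80 for Ctsl, 1.18 for Dusp14, 1.82 for Milr1 and 1.30 for Sult2b1. At higher levels they were 1.09 for Ccdc28b, 1.23 for Csrp1 and 1.19 for Calhm6. Ctse, called under both labels, had 1.96.

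Among large falls the values were -3.52 for Chrdl1, -3.30 for Grik1, -3.64 for Kalrn, -2.81 for Aff2, -3.31 for Arhgef15, -3.44 for Hoxd10, -3.34 for Ntrk3, -3.22 for Fndc7, -3.11 for Sphkap, -2.70 for Plppr4, -2.83 for Ugt2b37 and -2.90 for Marveld3. At higher levels they were -1.89 for Ntmt1, -2.03 for Acer2, -1.35 for Bzw2, -0.86 for Cfl1, -0.84 for Nap1l1 and -0.83 for Lgals1. The target Alk had -2.02.

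Among effector, cytokine signal and interferon genes the values were -1.95 for Gzme, -2.31 for Gzmf, -1.79 for Gzmg, -2.68 for Il10, -1.36 for Cish, 1.11 for Ifit2 and 2.00 for Iigp1. The mitotic kinase Plk1, Pgk1 of glycolysis and the splicing factor Hnrnpu had values of 0.78, -0.78 and -0.92. Among markers of other cells they were 1.72 for Apoe, 1.76 for Arg1 and 2.04 for Aif1 of macrophages, -1.59 for Camp, -1.65 for Ngp, -1.75 for Cxcr2 and -1.06 for Mmp9 of neutrophils, and -1.59 for Pax5, -2.83 for Ebf1 and -1.65 for Cd22 of B cells.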

How the results depend on the processing

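The count of 3915 called genes labelled spleen moved to 2307 after quantile normalization, 2357 with the filter on low values, 2285 at an absolute difference of at least 1, 6484 with arrays labelled spleen only, 6194 with the 15 hairpin arrays as 1 group and 6213 with transduction as a random block. It was 1653 to 4845 when 1 array was left out. Cyclic loess (2792), the mean of probe sets (4400) and the Gapdh covariate (3481) kept the count within 1.5 times, but not all the same genes. Of the 3915 genes, cyclic loess also called 1728 (44.1%), the mean of probe sets 3349 (85.5%) and the Gapdh covariate 2685 (68.6%). With the replicate block, although the numbers do not pair the arrays, the count was 3367. The tumor count of 14 moved to 66 (quantile), 47 (cyclic loess), 4638 (array weights) and 5 (arrays labelled tumor only), and to 5 to 23 with 1 array left out. The interaction count of 2683 moved to 493 (quantile), 324 (cyclic loess), 621 (filter), 5122 (array weights) and 1465 (Gapdh covariate), and to 25 to 4980 with 1 array left out. The count among hairpins, 980, moved to 2084 (quantile), 2365 (cyclic loess) and 5852 (array weights), and to 675 to 1028 with 1 array left out. The cause of these moves was not tested, apart from the genes and arrays that the filter and the smaller fits leave out. Of 119 named genes, 30 lost the call with their sign kept after quantile normalization, 31 after cyclic loess and 35 with the Gapdh covariate. After quantile normalization 4 more lost the call and changed sign. Differences that changed sign were those of Rplp2 (0.0104), Tmsb10 (0.0192), Rpl35 (0.0319) and Rps3 (0.0185) after quantile normalization, Arhgap5 (-0.0820) with the mean of probe sets, and Ptpn2, at 0.00285 without the Ptpn2 group, and at -0.36 to 0.11 with 1 array left out (0.11 without LacZ array 2). The settings applied to the gene lists, the level ranges and the tier of brighter genes were chosen after seeing the data. With 3 LacZ arrays, 0 of 50 shifts of 0.5 and 15 of 50 shifts of 1 were recovered in simulated arrays.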
